A study of Mus musculus with 2 samples.

Results

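The genes described here are 10 rows of a table of counts per gene, chosen by gene symbol from 24421 rows: sensors of RNA and DNA in the cytosol or endosome (Zbp1, Ddx58, Ifih1, Dhx58, Tlr3 and Mb21d1), their adaptors Mavs and Tmem173, and the necroptosis genes Ripk3 and Mlkl. All 10 had a row and averaged at least 1 CPM (counts scaled to library size) over both libraries, as did 13928 genes in all. The tested sample was the ovary of an 8-week-old C57BL/6J mouse labelled H19KO, with the allele given as H19(Δ3). It was set against the ovary of an 8-week-old wild-type (WT) C57BL/6J mouse, and neither was treated. Total RNA was depleted of ribosomal RNA and sequenced, 1 library per genotype, and how many animals gave each library is not given in the sources used here. The study asked which ovarian genes depend on H19, an imprinted long noncoding RNA.

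Cells carry receptors that bind foreign or misplaced nucleic acid and start an interferon response. The RNA helicases RIG-I (Ddx58) and MDA5 (Ifih1) signal through MAVS on mitochondria, and their relative LGP2 (Dhx58), which lacks the signalling domain, adjusts their activity. cGAS (Mb21d1) binds DNA and makes a cyclic dinucleotide that activates STING (Tmem173), and TLR3 detects RNA in endosomes through the adaptor TICAM1. ZBP1 binds nucleic acid in the left-handed Z form and recruits the kinase RIPK3, which phosphorylates MLKL, the protein that breaks the plasma membrane in necroptosis. Several of these genes are themselves induced by interferon.

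With 1 library per genotype no difference has a replicate check, so no p-value is given and each comparison describes these libraries. Intervals are 95% exact intervals that cover counting error only. The members were chosen with the ratio of these same libraries known, so their ratios are a description. H19 had 0 counts in the H19KO library and 672 in the WT library. Taking 3 counts (0.130 CPM) as the limit that a count of 0 allows, the gene was lower there by at least 223-fold if the WT count is taken as measured. With the counting error of the WT count included, the upper end of the exact interval was a log2 ratio of -7.50. Total counts were 23041225 in the H19KO library and 23335131 in the WT library. In whole ovary, fewer cells of a type and less RNA per cell cannot be told apart. All 10 defining ovary markers were measured, and they summed to 3578 CPM in the H19KO library and 4426 CPM in the WT library.

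Of the 10 genes, Zbp1 differed most between the libraries, and 5 others were higher in the H19KO library by smaller amounts: Ifih1, Dhx58, Ddx58, Tlr3 and Mlkl. For these 6 genes the interval of the H19KO to WT ratio lay wholly above equality, for none wholly below, and for Mavs, Mb21d1, Tmem173 and Ripk3 it spanned equality. Among all measured genes 22.2% had an interval wholly above equality and 24% wholly below. Only Zbp1 among the 10 had an interval wholly above 2-fold, and none lay wholly below, against 0.61% and 0.388% of all measured genes. The median log2 ratio of the 10 genes was 0.31, and that of all measured genes was -0.01. Markers of macrophages, which use many of these sensors, were also higher: 11 of 15 had an interval above equality and 1 below, Csf1r, with a median log2 ratio of 0.28 and a summed level of 764 CPM in the H19KO library and 619 CPM in the WT library. Of the 10 ovary markers, 9 had an interval wholly below equality and 1, Star, above, with a median log2 ratio of -0.51. The steroid synthesis genes Cyp17a1, at -1.98, and Cyp19a1, at -1.60, lay wholly below 2-fold. The part of either marker list in the result was not tested.

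**Figure D1:**
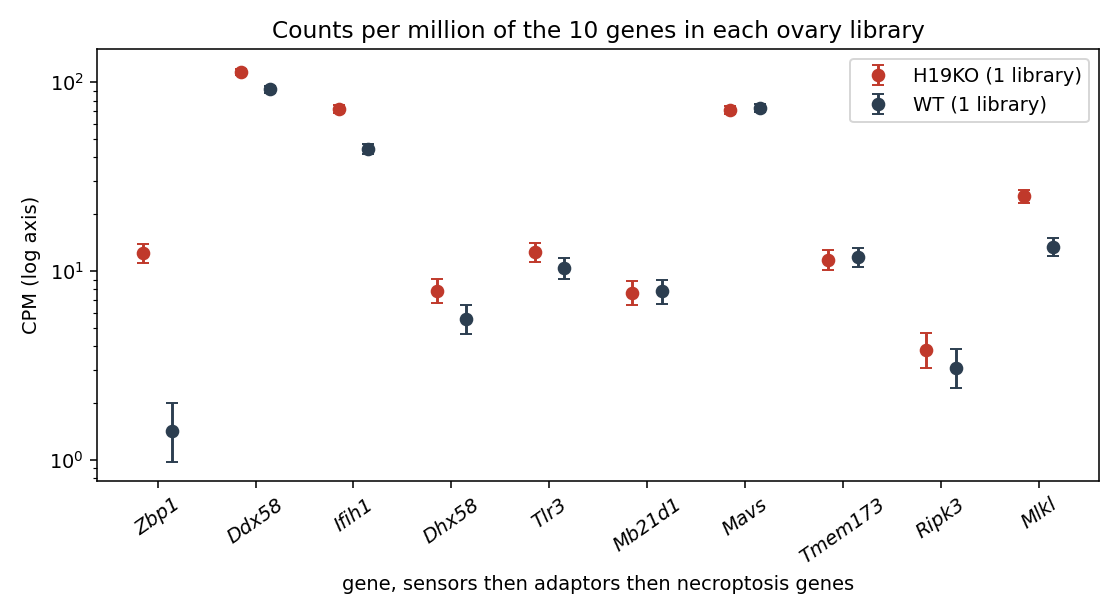
CPM on a log axis for each of the 10 genes, 1 library per genotype, with bars showing exact 95% Poisson intervals of the count. Zbp1 stands at 12.4 CPM in the H19KO library and 1.42 CPM in the WT library, while Mavs, Mb21d1, Tmem173, Tlr3 and Ripk3 have overlapping intervals.

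Sequences just before and after the transcription start were looked up for the 10 genes, because interferon acts through short promoter elements. The RefSeq promoter table (GRCm38.p6, 250 bases before and 50 after the start) held 7 of them, including Mb21d1 under its newer symbol Cgas. Zbp1, Dhx58 and Tmem173 are named only. The core of the interferon-stimulated response element, GAAA followed by any 2 bases and GAAA again, was searched on both strands and found in 2 of the 7, Ddx58 and Ifih1. It was present in 3.44% of all 32851 promoter windows listed. The stretches holding the match are shown 5′ to 3′ on the gene's strand, with the match in capitals.
Ddx58: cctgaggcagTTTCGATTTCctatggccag
Ifih1: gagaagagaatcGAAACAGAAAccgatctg
The Ddx58 stretch lies at chr4:40239804-40239833 on the minus strand. Its match reads on the opposite strand, beginning 3 bases into the transcript. The Ifih1 stretch lies at chr2:62646206-62646235, also on the minus strand of the chromosome, with the match on the gene's own strand from base 33 of the transcript. The gamma-activated site TTCNNNGAA was in none of the 7 and in 8.30% of all windows. The elements were not found in the windows of Mavs, Mb21d1, Tlr3, Ripk3 and Mlkl, which says only that these letters are not in them.

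Zbp1 (mm10 chromosome 2, 173206612 to 173218923, minus strand, protein-coding) had 287 counts, or 12.4 CPM, in the H19KO library and 33 counts, or 1.42 CPM, in the WT library. The H19KO library was 8.63-fold higher, with an interval of 6.09 to 12.9 (log2 ratio 3.11, 2.61 to 3.69). The counting intervals of the level in the 2 libraries did not overlap. By log2 ratio Zbp1 ranked 7th of the 13928 measured genes, highest first. The WT count is small, and it sets most of the width of the interval.

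The 5 measured genes whose log2 ratio was nearest to that of Zbp1 were taken over these 2 libraries alone. They were the alcohol dehydrogenase gene Adh7, the immunity-related GTPase gene Iigp1, and Gm12250, Gm6093 and Gm12185, which are listed under Gm symbols and were not classed here. Their log2 ratios differed from that of Zbp1 by 0.01 for Adh7, -0.02 for Gm12250, -0.06 for Iigp1, 0.25 for Gm6093 and -0.38 for Gm12185. Reads of the genes with Gm symbols may be shared with related copies, so their values are uncertain. With 1 library per genotype a like ratio does not show that genes are regulated together, which was not tested.

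The 3 RIG-I-like helicase genes were all higher in the H19KO library, in the order Ifih1, Dhx58, Ddx58 by ratio. Ifih1, the sensor of long RNA duplexes (chromosome 2, 62595798 to 62646255, minus strand), showed 1674 counts, or 72.4 CPM, in the H19KO library and 1034 counts, or 44.5 CPM, in the WT library. Its log2 ratio was 0.70 (0.59 to 0.82), a fold of 1.63. Ddx58, which detects RNA with an exposed triphosphate end (chromosome 4, 40203773 to 40239828, minus strand), showed 2612 counts in the H19KO library and 2131 in the WT library, a log2 ratio of 0.30 (0.22 to 0.38). Dhx58 (chromosome 11, 100694884 to 100704271, minus strand) showed 181 counts in the H19KO library and 129 in the WT library, a log2 ratio of 0.49 (0.16 to 0.83). The intervals of Ifih1 and Ddx58 did not overlap, while that of Dhx58 took in values of both. Ifih1 made up 37.5% of the counts of the 3 helicases in the H19KO library (36.1 to 38.9, Clopper-Pearson) and 31.4% in the WT library (29.8 to 33.0). The share of Ddx58 was 58.5% (57.0 to 59.9) in the H19KO library and 64.7% (63.0 to 66.3) in the WT library. Dhx58 held 4.05% in the H19KO library and 3.92% in the WT library, with overlapping intervals.

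The other sensors differed less. Tlr3 (chromosome 8, 45395665 to 45411080, minus strand) showed 291 counts in the H19KO library and 241 in the WT library, a log2 ratio of 0.28, and its interval of 0.03 to 0.53 lay only just above equality. Mb21d1, the DNA sensor (chromosome 9, 78430526 to 78443237, minus strand), showed 177 counts in the H19KO library and 181 in the WT library, a log2 ratio of -0.02 (-0.33 to 0.28). At this depth a change of Mb21d1 within 0.795-fold to 1.22-fold could not be seen. On the opposite strand, exons of Dhx58, Tlr3 and Mb21d1 overlap those of Dhx58os over 141 bases, Gm45542 over 381 bases and the pseudogene Gm8093 over 201 bases. The strand setting of the counting is not given, so reads of these pairs cannot be told apart.

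Both adaptor genes were at nearly the same level in the 2 libraries. Mavs (chromosome 2, 131234063 to 131248025, plus strand) had 1653 counts, or 71.5 CPM, in the H19KO library and 1694 counts, or 72.9 CPM, in the WT library. Its log2 ratio was -0.03, with a narrow interval of -0.13 to 0.07, or 0.916-fold to 1.05-fold. Tmem173 (chromosome 18, 35733679 to 35740554, minus strand) showed 264 counts in the H19KO library and 275 in the WT library, a log2 ratio of -0.05 (-0.30 to 0.20). By log2 ratio Mb21d1, Mavs and Tmem173 ranked 7279th, 7369th and 8016th of the 13928 measured genes.

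The necroptosis genes downstream of ZBP1 did not share its ratio. Mlkl, which encodes the executioner of necroptosis (chromosome 8, 111311797 to 111338177, minus strand), showed 575 counts, or 24.9 CPM, in the H19KO library and 312 counts, or 13.4 CPM, in the WT library. It was 1.85-fold higher (1.61 to 2.13), a log2 ratio of 0.89, ranked 277th, and its interval held 2-fold. Ripk3, the kinase between ZBP1 and MLKL (chromosome 14, 55784995 to 55788865, minus strand), showed 88 counts in the H19KO library and 71 in the WT library. Its log2 ratio was 0.32, with an interval of -0.15 to 0.79 that spanned equality. Ripk3 had the lowest mean CPM of the 10, at 3.43, and a difference of up to 1.73-fold was within its counting error.

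**Figure D2:**
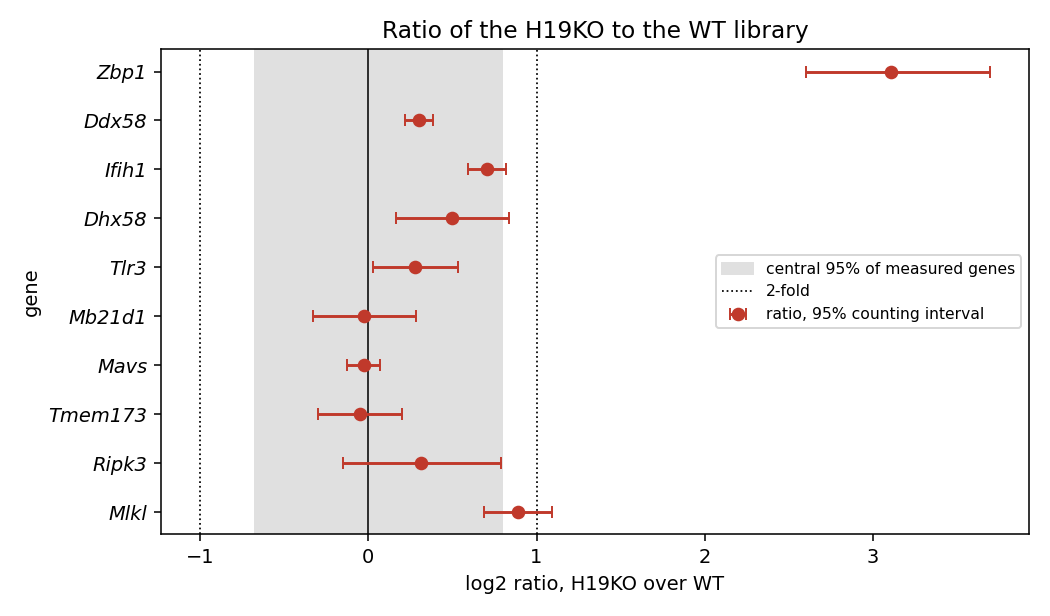
Log2 ratio of the H19KO to the WT library for each gene, with exact 95% counting intervals, the central 95% of all measured genes in grey and 2-fold dotted. Zbp1, at 3.11, lies far to the right of the band, Mlkl, at 0.89, near 2-fold, and Mavs, Mb21d1 and Tmem173 near 0.

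Levels of different genes were compared as CPM per kb of exon, which takes out gene length. In the H19KO library Mavs had the highest level of the 10 at 21.4 CPM per kb, followed by Ddx58 at 16.0, Mlkl at 10.8, Ifih1 at 8.87, Tmem173 at 4.17, Zbp1 at 3.52, Tlr3 at 2.42, Dhx58 at 2.39, Mb21d1 at 1.86 and Ripk3 at 1.66 CPM per kb. The intervals of neighbours in this order overlapped for Tmem173 with Zbp1, Tlr3 with Dhx58, Dhx58 with Mb21d1, and Mb21d1 with Ripk3. In the WT library Mavs was at 21.8, Ddx58 at 13.0, Mlkl at 5.83, Ifih1 at 5.45, Tmem173 at 4.31, Tlr3 at 1.99, Mb21d1 at 1.89, Dhx58 at 1.70, Ripk3 at 1.33 and Zbp1 at 0.402 CPM per kb. There Mlkl and Ifih1, Tlr3 and Mb21d1, Mb21d1 and Dhx58, and Dhx58 and Ripk3 overlapped. Zbp1 thus stood 6th of 10 in the H19KO library and 10th in the WT library, the last with no overlap with Ripk3. By the length of the longest transcript, Ddx58 stood above Mavs in the H19KO library. Ifih1 then stood above Mlkl in both libraries, at 13.2 against 12.4 CPM per kb in the H19KO library and 8.13 against 6.70 in the WT library. Dhx58 also passed Tlr3, and Ripk3 passed Mb21d1, in the H19KO library, and Dhx58 passed Mb21d1 in the WT library. The place of Zbp1 was the same by either length.

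**Figure D3:**
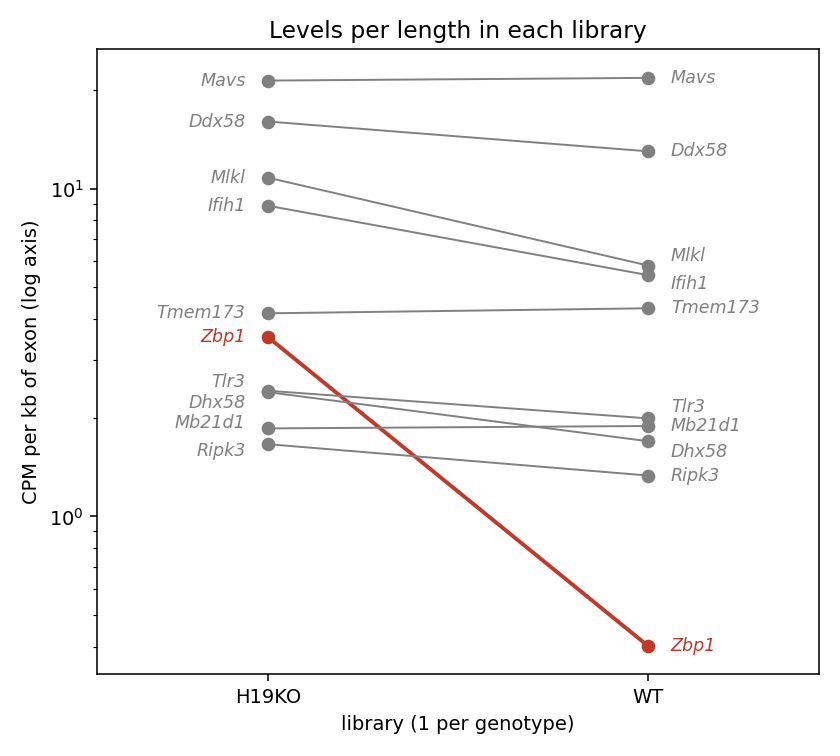
CPM per kb of exon on a log axis in the H19KO library, left, and the WT library, right, with a line for each gene. The line of Zbp1 crosses those of Tlr3, Dhx58, Mb21d1 and Ripk3, and those of Mavs and Tmem173 are nearly level.

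Ratios of counts within a library do not depend on how the libraries are scaled, so each sensor was set against its partner. The necroptosis genes Ripk3 and Mlkl were also set against each other. The Zbp1 to Ripk3 count ratio was 3.26 in the H19KO library and 0.465 in the WT library, 7.02 times as high (4.25 to 11.7). Zbp1 to Mlkl was 0.499 in the H19KO library and 0.106 in the WT library, 4.72 times as high (3.19 to 7.16). Among the sensors of the MAVS pathway, Ifih1 to Mavs was 1.01 in the H19KO library and 0.610 in the WT library, 1.66 times as high (1.49 to 1.84). The ratio to Mavs was 1.26 times as high in the H19KO library for Ddx58 (1.15 to 1.37) and 1.44 times for Dhx58 (1.13 to 1.84). Tlr3 to Ticam1, its adaptor, was 1.36 times as high (1.10 to 1.68), where Ticam1 itself had 566 counts in the H19KO library and 638 in the WT library. Mb21d1 to Tmem173 was 0.670 in the H19KO library and 0.658 in the WT library, a ratio of 1.02 (0.773 to 1.34). Ripk3 to Mlkl was lower in the H19KO library, at 0.153 against 0.228 in the WT library, 0.673 times (0.471 to 0.962). Of the 8 pairs, 6 thus had a higher ratio in the H19KO library and 1 a lower ratio, while the interval of the DNA-sensing pair held 1. Mavs, Zbp1, Ripk3 and Mlkl each occur in more than 1 pair, so the pairs are not separate observations.

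**Figure D4:**
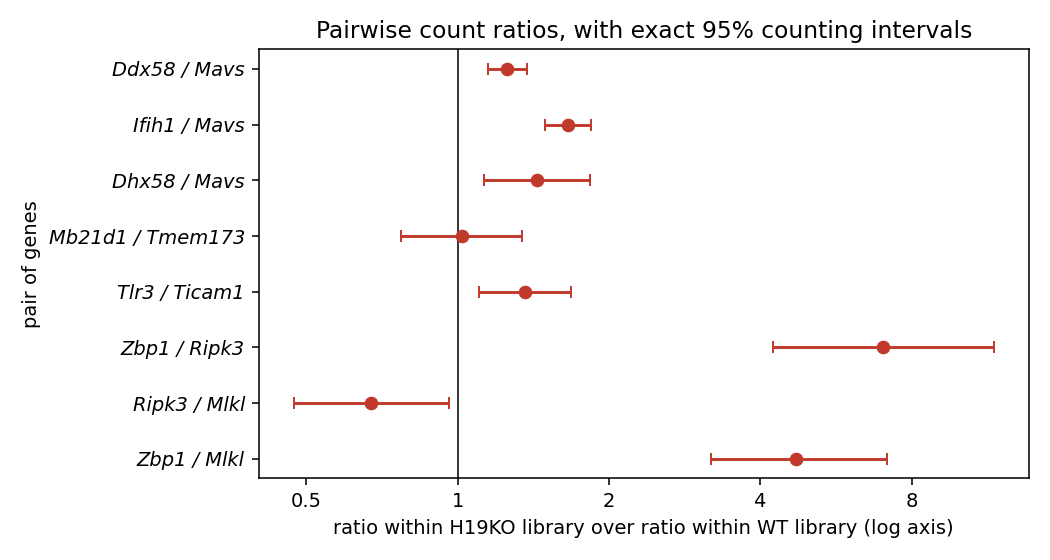
For each pair of genes, the count ratio within the H19KO library over that within the WT library on a log axis, with exact 95% counting intervals. Zbp1 over Ripk3 stands at 7.02 and Zbp1 over Mlkl at 4.72, and Mb21d1 over Tmem173 at 1.02.

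The rest of the pathway was read from 7 lists of partner genes, of which 91 of 109 genes were measured. Of the 91, 46 (50.5%) had an interval above equality, 7 below it, and 2 lay wholly above 2-fold, with Ifit3 among them. Among all measured genes 22.2% were above equality, 24% below and 0.61% wholly above 2-fold. The counts of each list below are to be read against the same shares. Their median log2 ratio was 0.15. The relay from the adaptors to transcription, which includes the kinases TBK1 and IKKε, went both ways. Of 18 measured genes 8 were above equality and 3 below, with a median log2 ratio of 0.08. The genes of both kinases were among the 8 above, Tbk1 at 0.15 (0.05 to 0.25) and Ikbke at 0.73 (0.45 to 1.02). The 3 below were the NF-κB subunits Rela, at -0.22 (-0.30 to -0.14), and Nfkb1, at -0.12, and the ubiquitin ligase Traf6, at -0.11. Irf7, an interferon regulatory factor named here after its value was seen, had 848 counts in the H19KO library and 436 in the WT library, a log2 ratio of 0.97 (0.80 to 1.14).

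RNA-binding antiviral effectors had a median log2 ratio of 0.44, with 9 of 14 measured genes above equality and 1 below. Ifit3 had 596 counts in the H19KO library and 232 in the WT library, a log2 ratio of 1.37 (1.15 to 1.59). The abundant Zc3hav1, which encodes an antiviral zinc finger protein, had 0.11 (0.05 to 0.16), and Oasl2, of the oligoadenylate synthetase family, 0.66 (0.58 to 0.74). The gene below was Oas1c, at -0.54 (-0.77 to -0.32). The Oas1, Oasl and Ifit genes are families of similar copies, so the split of reads among them is uncertain.

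The inflammasome and pyroptosis list had a median log2 ratio of 0.44, and 8 of 12 measured genes were above equality and none below. Mndal and Ifi204 belong to a family of DNA-binding proteins with close copies. The log2 ratio was 0.45 (0.35 to 0.55) for Mndal and 0.29 (0.18 to 0.41) for Ifi204. The partners of necroptosis and apoptosis had a median of 0.10, with 6 of 15 above equality and 1 below, the adaptor Tradd at -0.25. Cflar, an inhibitor of caspase-8, had 0.21 (0.15 to 0.27) and Xiap, an inhibitor of caspases, 0.13 (0.07 to 0.19). Other endosomal Toll-like receptors and adaptors had a median of 0.21, with 4 of 11 above and 1 below, the transporter gene Slc15a4 at -0.23. Unc93b1, the chaperone that carries these receptors to endosomes, had 0.34 (0.23 to 0.45), and the kinase gene Irak1 0.06. Genes that remove nucleic acid had a median of 0.06 (0.32 with no low count filter), with 4 of 9 above and 1 below, the RNase H2 subunit Rnaseh2b at -0.42. Samhd1, which degrades deoxynucleotides, had 0.46 (0.36 to 0.56), and Pnpt1, a mitochondrial RNase, -0.04 (-0.13 to 0.05).

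Interferons themselves were hardly detected. Of the 21 listed genes for interferons, their receptors and signalling, 8 had 0 counts in both libraries: Ifnb1, Ifna1, Ifna2, Ifna4, Ifne, Ifnk, Ifnl2 and Ifnl3. A count of 0 is still compatible with 0.130 CPM in the H19KO library and 0.129 CPM in the WT library. Ifng had 2 counts in the H19KO library and 1 in the WT library. Of the 12 measured genes 7 were above equality and none below, with a median log2 ratio of 0.13 and a mean of 0.29. The receptor-bound kinase gene Jak1 had 11587 counts in the H19KO library and 11862 in the WT library, a log2 ratio of -0.03 (-0.06 to 0.01).

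Immune cells other than macrophages were sparsely represented. Of 16 lymphocyte and NK cell markers 3 were measured, 1 above equality and 1 below, and the list summed to 15.6 CPM in the H19KO library and 16.0 CPM in the WT library. Of 8 dendritic cell markers 5 were measured, 1 above equality and none below, with sums of 33.8 CPM in the H19KO library and 29.5 CPM in the WT library. No marker of these lists that had a row was at 0 in both libraries.

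**Figure D5:**
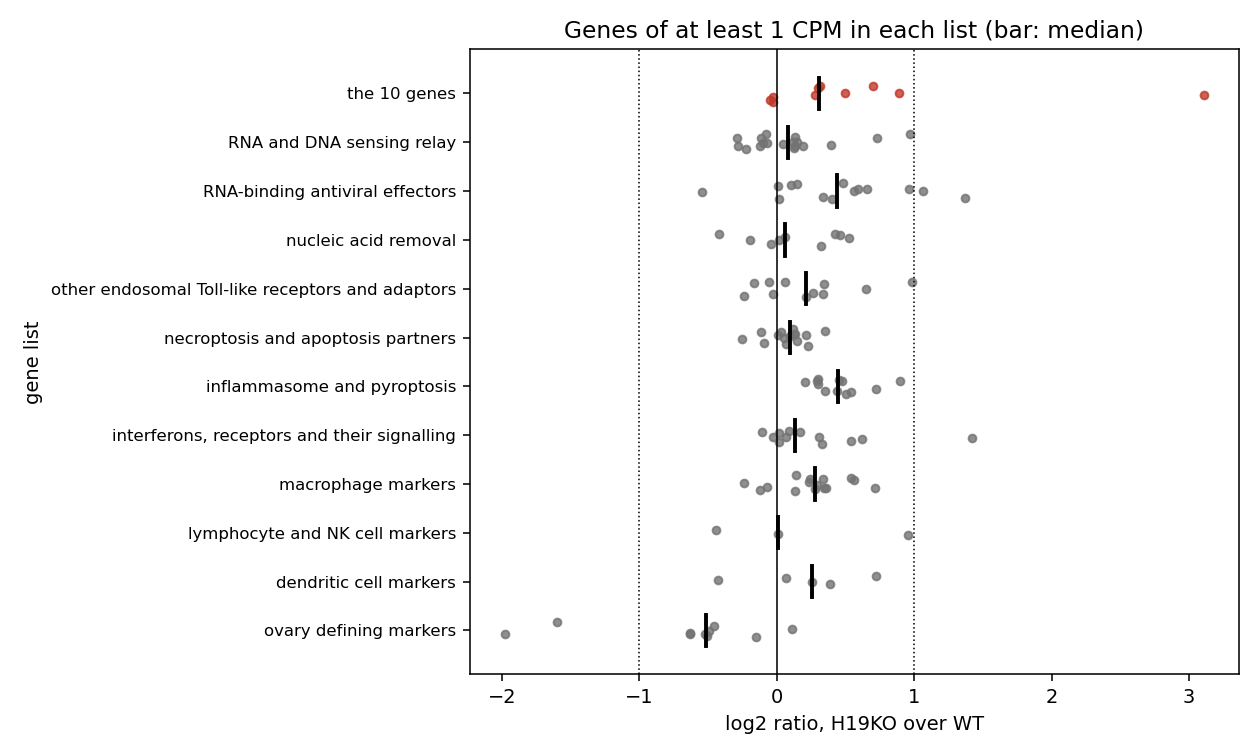
Log2 ratio of the H19KO to the WT library for each measured gene of the 10 and of the pathway and marker lists, with the median of each list as a bar and 2-fold dotted. Zbp1 at 3.11 is the highest point, and ovary markers lie mostly below 0, with a median of -0.51.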

How the data were processed

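The deposited values are whole-number counts per gene symbol made by the authors, 1 column per library. The submitters' processing notes name mm10 as the build and, with no role for each, DESeq2 1.0.0, Cufflinks 2.2.1 and STAR 2.5.0a. How reads were counted, on which annotation and with what strand setting, is not given in the sources used here. Whether the authors rescaled the counts is not given either: the DESeq2 size factors of the 2 columns were both 1. The counting intervals hold as stated only if the counts were not rescaled, and only then do the totals give the depth. A further 27 rows carry dates in place of symbols and hold 0.231% of H19KO and 0.229% of WT counts. They stayed in the totals.

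TMM factors (edgeR 4.0.16) scaled the libraries. Log2 ratios are H19KO over WT of scaled counts with 0.5 added, with exact conditional binomial (Clopper-Pearson) 95% intervals. Pair ratios have exact conditional odds ratio intervals (scipy 1.17.1). Coordinates and exon lengths are from GENCODE M21 on the same build, where Mb21d1 is Cgas. Genes under 1 CPM were not given ratios. Named genes were the 10 members, H19, the 5 genes nearest Zbp1 in ratio, and, per list, the 2 most abundant members and at most 3 beyond 2-fold; others were named after their values were seen. A gene that this rule selects is omitted from the text. The members and lists were chosen with earlier results of these data known. The computation was checked on simulated counts. Protein sequences were not used here. Alternatives covered scaling, the low count filter, the added count, the fold limit and the gene length.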

Additional observations from a re-analysis of the deposited data

How the results depend on the processing

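Under the 3 other scalings, all 30 log2 ratios of the 10 genes kept their direction and their intervals stayed above, below or across equality as before. The scalings hardly differ for these libraries, so they could change little. The log2 ratio of Zbp1 was 3.10 by median-of-ratios scaling and 3.12 by total counts. With 5 added to each scaled count all 10 kept their direction, which adding the same number to both libraries cannot change. The log2 ratio of Zbp1 was then 2.95 in place of 3.11. The intervals do not use the added count. The low count filter cannot alter a gene's own ratio, but at a minimum of 5 CPM Ripk3 drops out. With a limit of 1.5-fold in place of 2-fold, 3 of the 10 genes lay wholly above it, Zbp1, Mlkl and Ifih1. The share of all measured genes above 1.5-fold was not computed, so this count has no background to be read against. By the longest transcript in place of all exons, the log2 ratio of the Mavs to the Ddx58 level was -0.32 in the H19KO library, turned from 0.42, and 0.0106 in the WT library, against 0.74 by exon length, because the exons of Ddx58 span 7050 bases and its longest transcript 3874. Of 65 list medians under alternatives, 62 moved by less than the counting error of their genes. The others were nucleic acid removal, at 0.32 with no low count filter, which brings in genes of few counts, and, by the mean of members, interferons and their signalling, at 0.29, and ovary markers, at -0.69. No paired analysis was possible because there was 1 library per genotype, and for the same reason none could be left out. Depth limits Ripk3 and the WT value of Zbp1, with 33 counts.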

Other observations

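Chromosomal neighbours of the 10 genes leaned slightly lower in the H19KO library. The nearest measured gene on each side, 20 genes in all, had a median log2 ratio of -0.06, and none had an interval beyond 2-fold. Of these neighbours none lay wholly above equality, 8 lay wholly below and 12 spanned it. Among all measured genes 22.2% lay wholly above equality and 24% wholly below. Beside Zbp1, Pmepa1 had 1593 counts in the H19KO library and 1553 in the WT library, a log2 ratio of 0.04 (-0.06 to 0.15), at a distance of 5.54 kb. Rbm38, at 172 kb on the other side, had -0.16 (-0.30 to -0.03). The neighbours of Mlkl, Rfwd3 and Fa2h, had 0.02 (-0.05 to 0.09) and 0.06 (-0.74 to 0.86). The lowest value was that of Adcy4 beside Ripk3, at -0.42 (-0.69 to -0.16), and the highest that of Fap beside Ifih1, at 0.29 (-0.11 to 0.69).

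Together the 10 genes held 7802 counts, or 337 CPM, in the H19KO library and 6101 counts, or 262 CPM, in the WT library. Zbp1 made up 3.68% of them in the H19KO library and 0.541% in the WT library, Ifih1 21.5% in the H19KO library and 16.9% in the WT library, and Mavs 21.2% in the H19KO library and 27.8% in the WT library.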
